A study of Homo sapiens with 6 samples.

Results

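The translation factors and poly(A)-binding proteins are the genes whose human symbols begin with EIF1, EIF2, EIF3, EIF4, EIF5, EIF6, EEF or PABP, together with ETF1, GSPT1, GSPT2 and ABCE1. Kinases of the EIF2AK family and pseudogenes were left out. The rule took 91 genes, of which 81 are protein-coding and 10 are noncoding, among 20050 protein-coding genes of the gene table. The study sheared polyA+ RNA of PANC-1, an established human cell line of pancreatic ductal adenocarcinoma, and precipitated fragments with an antibody against N1-methylguanosine (m1G). The libraries were 2 m1G precipitates and 1 input from cells transfected with siRNA against TRMT5 and depleted of it for 4 days, and 2 m1G precipitates and 1 input from control cells. The control is labelled WT control, all cells were transfected and belong to batch I, and the labels do not say whether the precipitates of a pair came from separate cultures. TRMT5 is the tRNA methyltransferase that places m1G beside the anticodon.

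The values come from 2 peak lists of the whole series, of 18431 peaks called by MeTDiff and 6264 single-base summits called by MACS2. The MeTDiff fold is an enrichment of precipitate over input, read as such from the order of the columns, and the MACS2 score is on the −log10 scale of a p or q, which of them is not stated. Each fold, false discovery rate (FDR) and score is the authors' own value for that peak. Neither list names a condition, library or replicate, so a value has no replicate error, and TRMT5-depleted and control cells were not compared. The lists hold no read counts, so depth is unknown, and they hold no expression values, so how far a peak reflects the amount of an mRNA was not tested. Of 7 ductal epithelial markers, 5 had a MeTDiff peak, among them KRT8, KRT18 and KRT19, while KRT7 and CDH1 were in neither list. Of the mesenchymal markers, VIM had 5-fold enrichment and a score of 43.4 and CDH2 8.64-fold, and ZEB1 was in neither list. Of markers of other cell types, the fibroblast gene COL1A1 had 9 MeTDiff peaks up to 8.21-fold and a score of 11.3, and the leukocyte gene CD68 5.17-fold. DCN, PTPRC and the 4 acinar and 3 endocrine markers searched were in neither list.

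Translation starts when eIF2 brings the initiator tRNA to the small ribosomal subunit, which eIF1, eIF1A and eIF3 prepare and which eIF4F recruits to the mRNA cap. The factor eIF2B recharges eIF2 with GTP, and its inhibition by phosphorylated eIF2 is the switch of the integrated stress response. Elongation factors deliver charged tRNAs and move the ribosome, release factors end synthesis at stop codons, and poly(A)-binding proteins bind the tail and contact eIF4G. Many mRNAs of this machinery begin with a run of pyrimidines, the 5′ terminal oligopyrimidine motif, through which mTOR controls their translation.

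At 10 of the 65 coding members that have an entry in the RefSeq promoter table (GRCh38.p14), a MeTDiff peak reached into the first 50 transcribed bases (15.4%). The same held for 1382 of 15843 protein-coding genes (8.72%). For both counts any overlapping peak on the strand was taken, also one that crosses the end of the gene span. EIF5, EEF1E1 and EIF4G2 are among the 10 through such peaks, which the counts of peaks inside spans leave out. The sequences around 7 starts are shown to set starts with a nearby peak beside pyrimidine starts without one. Capitals mark the first 30 transcribed bases and lower-case letters the 30 bases before them. EIF3B, at chr7:2354797-2354856 on the plus strand, has the highest MACS2 score of the group, and its peak begins at transcribed base 41 from this start, beyond the printed bases. EIF4A1 (chr17:7572795-7572854, plus) and EIF1AX (chrX:20141809-20141868, minus) have peaks that begin at base 2 and base 1. EIF3F (chr11:7987307-7987366, plus) and EIF3K (chr19:38619158-38619217, plus) begin with the pyrimidine motif, and their peaks begin at bases 40 and 45, also beyond the printed bases. EEF1A1 (chr6:73521003-73521062, minus) and EEF2 (chr19:3985434-3985493, minus) begin with it too and have no peak in the first 50 bases.
EIF3B: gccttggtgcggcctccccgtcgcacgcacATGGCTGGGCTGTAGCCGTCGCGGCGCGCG
EIF4A1: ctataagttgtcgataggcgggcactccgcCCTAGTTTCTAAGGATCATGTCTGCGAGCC
EIF1AX: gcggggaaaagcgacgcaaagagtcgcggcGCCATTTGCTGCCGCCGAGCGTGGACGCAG
EIF3F: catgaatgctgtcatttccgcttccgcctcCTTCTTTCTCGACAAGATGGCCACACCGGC
EIF3K: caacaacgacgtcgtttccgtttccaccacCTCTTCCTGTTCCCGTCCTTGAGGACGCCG
EEF1A1: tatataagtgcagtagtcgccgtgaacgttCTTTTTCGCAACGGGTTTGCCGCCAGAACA
EEF2: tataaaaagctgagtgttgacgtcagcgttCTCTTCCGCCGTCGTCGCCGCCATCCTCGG

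The pyrimidine motif was scored on the transcribed strand as C at the first base followed by at least 4 bases that are each C or T. It stood at a start of 13 of the 65 coding members (20%) and of 988 of the 15843 protein-coding genes (6.24%). Of the 13 members with it, 2 had a MeTDiff peak in the first 50 bases, and so did 8 of the 52 members without it. Over all protein-coding genes with the motif, 96 of 988 had such a peak (9.72%). A match is a description of these letters, and an annotated start may differ from the start used in PANC-1 cells.

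Of the 81 coding members, 46 had a MeTDiff peak inside the gene span on the strand of the gene (56.8%, 95% Wilson interval 45.9 to 67.0), against 36.6% of all protein-coding genes. A MACS2 summit lay in 27 (33.3%, interval 24.0 to 44.1), against 18.0% of all protein-coding genes. Both were present in 25 (30.9%, interval 21.9 to 41.6), against 16.7%. The intervals cover counting error only, and genes are not replicates of a condition. The median gene span was 17767 bp for coding members and 24093 bp for all protein-coding genes. In all, 101 MeTDiff peaks and 53 summits belonged to the group, and 33 coding members were in neither list. Among the 33 are EIF5 and EEF1E1, whose peaks cross the end of the span.

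**Figure D1:**
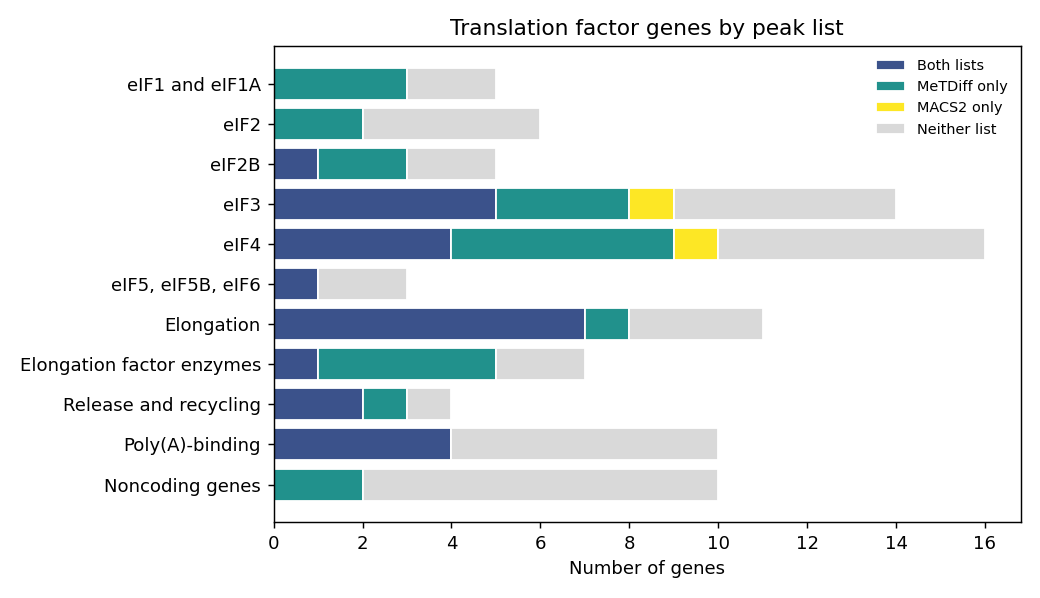
Number of genes (x axis) of each group of translation factors (y axis), coloured by the peak list they appear in: both lists, MeTDiff only, MACS2 only or neither. Elongation factors have the most genes in both lists, 7 of 11, while 0 of the 6 eIF2 genes are in both. Of all protein-coding genes, 16.7% are in both lists.

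The folds of member peaks had a lower median than those of protein-coding genes, and their scores did not. The 101 member peaks had a median fold of 3.64 (exact binomial 95% interval of the median 3.25 to 4.00), from 1.23 in PABPC1 to 45.7 in PABPC4, and the 16846 peaks of protein-coding genes had a median of 4.17. Taking the strongest peak of each gene, the median was 4.83 over 46 coding members and 6 over 7335 protein-coding genes. Member summits had a median score of 17.5 (interval 13.3 to 23.3), from 2.32 to 100, and the 5668 summits in protein-coding genes one of 16.4. These differences were not tested, since no sample stands behind a value.

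**Figure D2:**
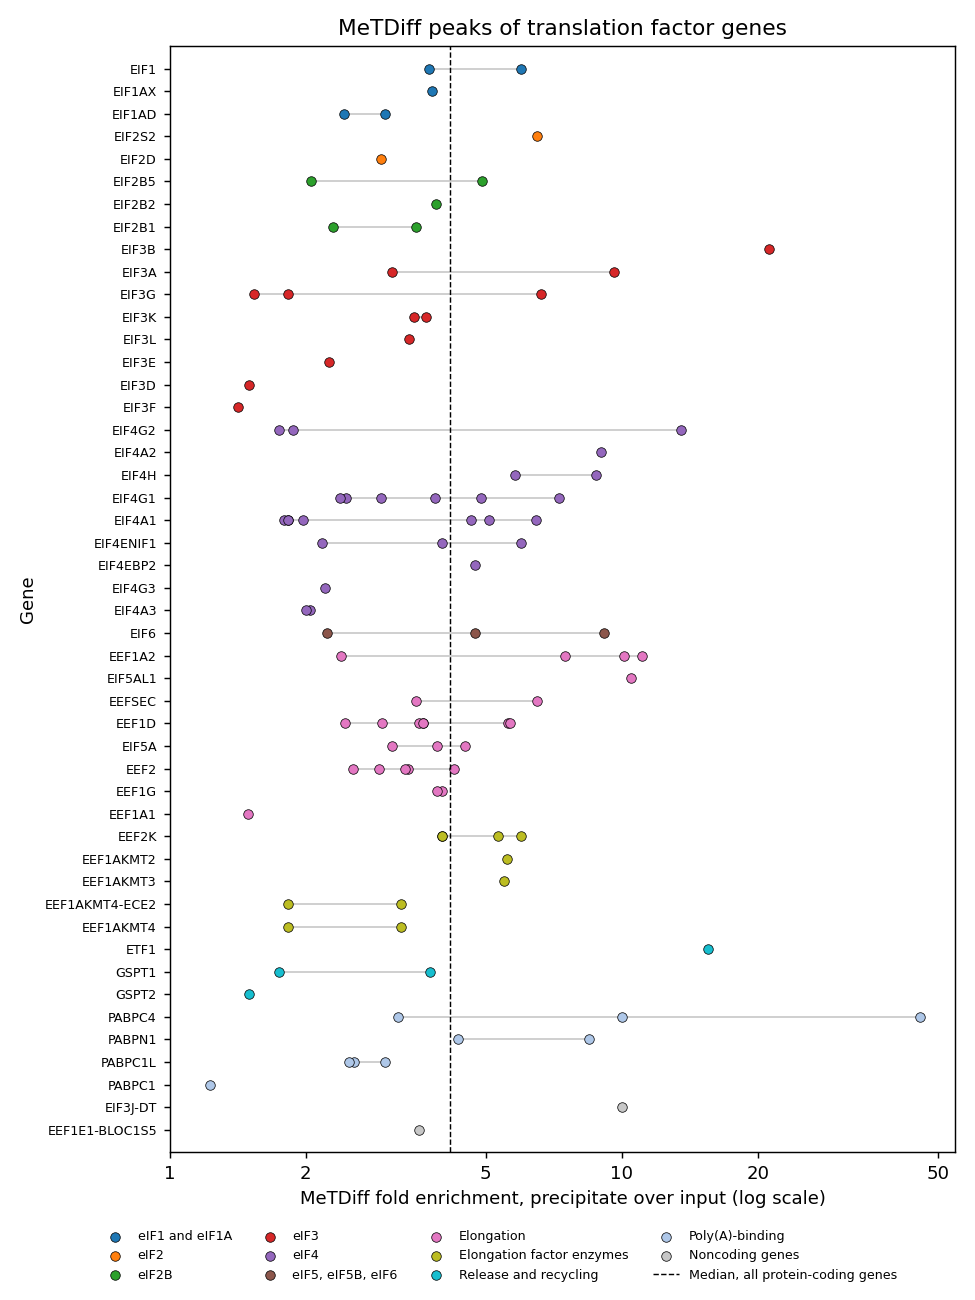
Each point is a MeTDiff peak, with its fold enrichment on a log scale (x axis) and its gene (y axis), and points of a gene are joined by a grey line; the dashed line is the median of 4.17 over peaks of protein-coding genes. The other points lie between 1.23 and 13.5, and PABPC4 (45.7), EIF3B (21.2) and ETF1 (15.5) lie beyond them.

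Of the 5 genes of eIF1 and eIF1A 3 had a MeTDiff peak, and of the 6 of eIF2 2 had one, against 36.6% of all protein-coding genes, and none of either group had a summit, against 18.0%. EIF1, which guards start codon choice, had 2 peaks of 6-fold and 3.75-fold, both with an FDR of 7.08e-05. EIF1AX, which promotes scanning, had 1 peak of 3.80-fold that covers the first transcribed base of the printed start. EIF1AD, a gene with an eIF1A-like domain, had 2 peaks of 3-fold and 2.43-fold. Among the 6 genes of eIF2 and related tRNA carriers, EIF2S2, the beta subunit, had 6.50-fold enrichment at chr20:34112145-34112243, which ends at the annotated start of the gene. EIF2D, which can place tRNA in the ribosomal P site, had 2.94-fold. No peak of either list was assigned to EIF1B, EIF1AY, EIF2S1, EIF2S3, EIF2S3B or EIF2A. The copies EIF1B of EIF1, EIF1AY of EIF1AX and EIF2S3B of EIF2S3 are close to their partners in sequence, and the sources used here do not say how reads shared between them were counted.

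Of the 5 eIF2B subunits, 3 had MeTDiff peaks and 1 had a summit, against 36.6% and 18.0% of all protein-coding genes. The catalytic subunit EIF2B5 had 4.90-fold enrichment 153 bp from the 3′ end of the gene (chr3:184145034-184145283, FDR 0.00107) and 2.06-fold 127 bp from the 5′ end. EIF2B2, a regulatory subunit, had a peak of 400 bp with 3.89-fold enrichment (chr14:75002971-75003370, FDR 1.58e-05). That peak holds the only eIF2B summit, of score 11.3. EIF2B1, the alpha subunit, had 3.50-fold and 2.30-fold, and EIF2B3 and EIF2B4 were in neither list. All 3 subunits with a peak had largest folds below the median of 6 over protein-coding genes.

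The eIF3 complex held the strongest MACS2 summit of the group. EIF3B, a scaffold subunit, had a score of 100 at position 2355093 of chromosome 7, the sixth-highest of all 6264 summits. Its only MeTDiff peak contains that summit, has 21.2-fold enrichment and an FDR of 1.05e-05, and joins 2 blocks of 650 bp in total between 2354867 and 2360805. EIF3A, the other scaffold subunit, had 9.63-fold enrichment over 497 bp (chr10:119042031-119042527, FDR 4.37e-06) with a summit of score 36.1 inside it, and a further peak of 3.11-fold towards the 3′ end. The EIF3A sites lay 8609 and 3456 bp from the 3′ end of a gene of 47148 bp, whereas the EIF3B peak lay 1105 bp from the 5′ end. The 1105 bp run from the start of the annotated span to the middle of the peak, and the printed start of EIF3B lies further inside that span.

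The other eIF3 subunits were weaker. EIF3G, which binds EIF3B and carries an RNA recognition motif, had 6.63-fold, 1.83-fold and 1.54-fold enrichment, the middle one with an FDR of 0.0490, and a summit of score 2.88. EIF3K, at the outer edge of the complex, had 3.69-fold and 3.48-fold and a summit of score 9.15, and its partner EIF3L had 3.39-fold. EIF3E had 2.25-fold, EIF3D, which can itself bind the cap of some mRNAs, 1.5-fold, and EIF3F 1.42-fold with a summit of score 13.1 far from that peak. Thus the strongest peaks of eIF3 subunits spanned 1.42-fold to 21.2-fold, and those of EIF3D and EIF3F exceeded the largest fold of 0.695% and 0.545% of protein-coding genes with a peak. EIF3I had 2 summits of scores 13.9 and 12.2 and no MeTDiff peak. EIF3C and EIF3CL, which are near-identical copies, EIF3H, EIF3J and EIF3M were in neither list.

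In the cap-binding complex eIF4F the scaffold and the helicase had peaks, and the cap-binding subunit had none. EIF4G1, the scaffold that joins cap, helicase and poly(A)-binding protein, had 6 MeTDiff peaks of 3.87, 7.28, 2.93, 2.46, 2.38 and 4.89-fold from the 5′ to the 3′ end. Its 6 summits had scores from 5.07 to 26.5, the highest inside the last of these peaks. EIF4A1, the RNA helicase, had 7 MeTDiff peaks from 1.79-fold to 6.46-fold and summits of scores 22.3 and 16.02. Those 7 peaks carry 3 gene IDs and fall into 3 separate regions, and the span of the readthrough gene SENP3-EIF4A1 also holds them, so they are not 7 independent sites. EIF4A2, the second helicase, had 9-fold enrichment at chr3:186786907-186787007 (FDR 0.000398). The cap-binding gene EIF4E and its relatives EIF4E1B, EIF4E2 and EIF4E3 were in neither list.

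EIF4G2, a relative of the scaffold that lacks the eIF4E site, had the largest fold of the eIF4 genes. Its peak of 13.5-fold (chr11:10808028-10808517, FDR 0.000151) covers 401 bp in 2 blocks and holds a summit of score 13.3, a further summit had 12.9, and its other peaks had 1.88-fold and 1.75-fold. EIF4G3 had 2.21-fold, 159 bp from the 5′ end. Of the helicase cofactors, EIF4H had 8.76-fold and 5.82-fold enrichment with a summit of score 21.0 at a distance of 48 bp from the stronger peak. EIF4B had a summit of score 29.99 at position 53027887 of chromosome 12 and no MeTDiff peak. EIF4A3, a helicase of the exon junction complex, had 2.05-fold and 2-fold. Of the proteins that restrain eIF4E, EIF4EBP2 had 4.75-fold and EIF4ENIF1 6, 4 and 2.17-fold, and EIF4EBP1 and EIF4EBP3 were in neither list.

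**Figure D3:**
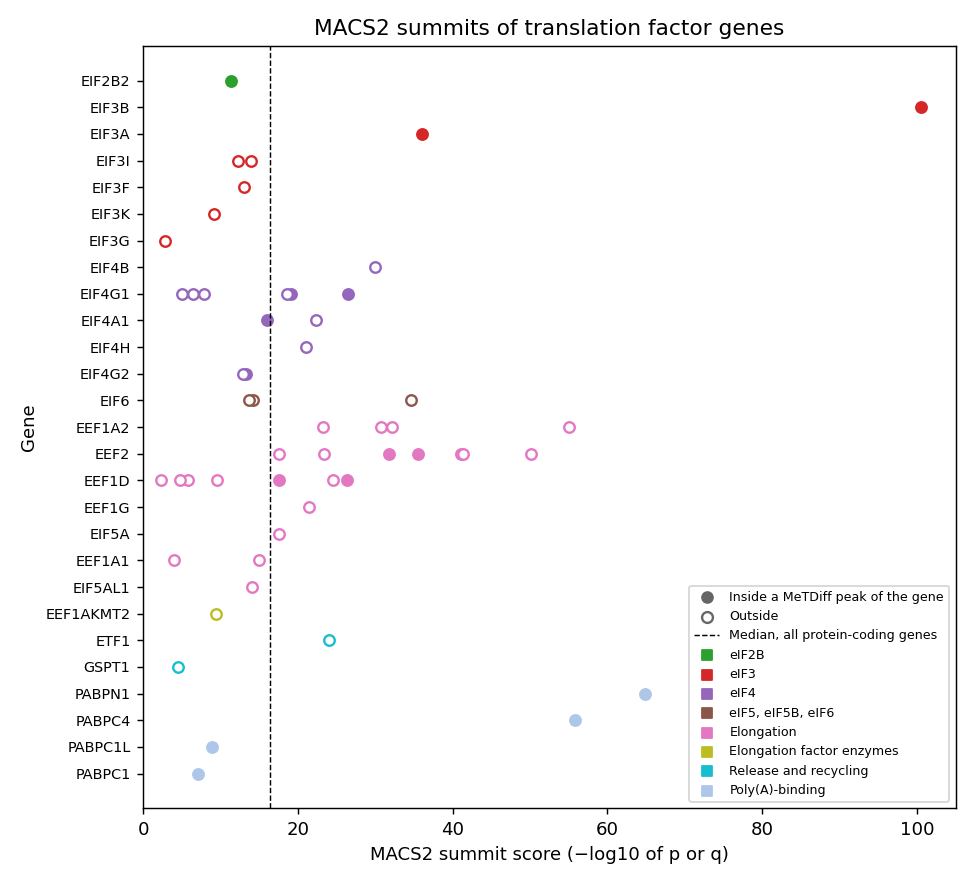
Each point is a MACS2 summit with its score, the −log10 of a p or q (x axis), in its gene (y axis), filled where it lies inside a block of a MeTDiff peak of that gene. EIF3B stands at 100, followed by PABPN1 (64.9), PABPC4 (55.8), EEF1A2 (55.0) and EEF2 (50.1).

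Among the factors of subunit joining, EIF6, which keeps ribosomal subunits apart, had 9.13-fold enrichment in 3 blocks (chr20:35279715-35280740, FDR 0.000427). A peak of 4.73-fold under another gene ID overlaps it, and another peak had 2.23-fold near the 5′ end. Its 3 summits, of scores 34.6, 14.2 and 13.7, lay 56 to 100 bp outside the blocks of these peaks. EIF5B, the GTPase of subunit joining, was in neither list. EIF5, the GTPase activator of eIF2, had a peak of 8.50-fold that extends 19 bp beyond the annotated span. It was therefore counted only among the peaks at transcript starts.

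Elongation factors had the most summits of these groups, 23 of the 53 in 7 of 11 genes, against 18.0% of all protein-coding genes with a summit. EEF2, which moves the ribosome along the mRNA, had 7 summits between positions 3976669 and 3984373 of chromosome 19, with scores of 50.1, 23.3, 35.6, 41.3, 41.1, 31.8 and 17.5 from the 5′ to the 3′ end. Its 5 MeTDiff peaks had 4.25, 3.37, 3.31, 2.90 and 2.54-fold enrichment. The highest of these scores exceeded 95.9% of all summits, and only the fold of 4.25 lay above the median of 4.17 for peaks of protein-coding genes. EEF1D, of the nucleotide exchange complex of eEF1A, had 7 MeTDiff peaks from 2.45-fold to 5.67-fold and 7 summits with scores from 2.32 to 26.4. EEF1G, of the same complex, had overlapping peaks of 4.01-fold and 3.91-fold under 2 gene IDs and a summit of score 21.5, and EEF1B2 was in neither list.

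The paralogs that deliver charged tRNA to the ribosome differed in both lists. EEF1A2, the form known from muscle and neurons and from some cancers, had MeTDiff peaks of 11.1, 10.1, 7.5 and 2.39-fold. Its 4 summits had scores of 55.0, 32.2, 30.7 and 23.3 and lay 14 to 155 bp outside the blocks of these peaks. EEF1A1, the ubiquitous form, had 1 peak of 1.49-fold (chr6:73517889-73518080, FDR 0.000617) and summits of scores 14.9 and 3.96, which lay 787 and 1407 bp from it. The fold of EEF1A1 exceeded that of 0.668% of protein-coding genes with a peak, and the largest fold of EEF1A2 that of 80.4%. A test of this difference was not possible without samples, and the paralogs are similar in coding sequence, so reads may have been shared between them.

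EIF5A, the hypusine-carrying factor that helps stalled ribosomes, had 4.50, 3.90 and 3.11-fold enrichment and a summit of score 17.6, 4 bp outside the block of a peak. The intronless copy EIF5AL1 had 10.5-fold enrichment (chr10:79512950-79513100, FDR 0.000617) and a summit of score 14.1, 5 bp from that peak. EIF5AL1 is close to EIF5A in sequence, so the gene of origin of these reads is uncertain. EEFSEC, which delivers selenocysteine tRNA, had 6.50-fold and 3.50-fold with FDRs of 0.0138 and 0.00617. EIF5A2 was in neither list, and the peak of EEF1E1 crosses the end of its span.

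Of the enzymes that modify elongation factors, EEF2K, the kinase that inhibits eEF2, had 4 MeTDiff peaks of 6, 5.33, 4 and 4-fold and no summit. The lysine methyltransferase gene EEF1AKMT2 had 5.57-fold and a summit of score 9.40, 12 bp from its annotated start. EEF1AKMT3 had 5.50-fold, and a peak of 6.33-fold under another gene ID overlaps it but extends 609 bp beyond the span and was not counted. EEF1AKMT4 had 3.25-fold and 1.83-fold at nearly the same bases under 2 gene IDs, and its readthrough partner EEF1AKMT4-ECE2 holds the same peaks. EEF1AKMT1 and EEF2KMT were in neither list.

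Among the release factors ETF1, which reads stop codons, had the third-largest fold of the group, 15.5 (chr5:138512823-138512923, FDR 1.95e-05). Its summit of score 24.0 lay 66 bp from that peak. GSPT1, the GTPase that works with it, had 3.77-fold and 1.75-fold with a summit of score 4.47, and its intronless copy GSPT2 1.5-fold with an FDR of 0.0389. The recycling factor ABCE1 was in neither list. Thus ETF1 alone of these 4 genes had a fold above the median of 6 for the strongest peak of a protein-coding gene.

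Poly(A)-binding proteins held both extremes of the fold. PABPC4, a cytoplasmic form first described in activated T cells, had peaks of 45.7, 10.0 and 3.20-fold. The strongest (chr1:39575843-39576042, FDR 0.00102) ranks 32nd of 18431 peaks and holds a summit of score 55.8, which lies 774 bp after the annotated start. PABPC1, the main cytoplasmic form, had 1 peak of 1.23-fold (chr8:100721704-100721804, FDR 0.00631), the lowest of the group, and a summit of score 7.10 inside it, 354 bp after the annotated start. The fold of PABPC4 exceeded the largest fold of 99.6% of protein-coding genes with a peak, and that of PABPC1 exceeded 0.0682%.

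PABPN1, the nuclear form that controls tail length, had a peak of 349 bp with 8.47-fold enrichment (chr14:23321537-23321885, FDR 0.000251) around a summit of score 64.9, and a further peak of 4.35-fold. The span of the readthrough gene BCL2L2-PABPN1 holds both. PABPC1L, a form known from oocytes, had 3, 2.56 and 2.5-fold and a summit of score 8.92. Of the 10 genes of this family 4 had a MeTDiff peak, against 36.6% of all protein-coding genes. All 4 also had a summit, each inside a peak of the gene. Of all protein-coding genes, 7335 had a MeTDiff peak and 3346 had both, and 36.3% of their summits lay inside a peak of the gene. PABPC1L2A, PABPC1L2B, PABPC3, PABPC4L, PABPC5 and PABPN1L were in neither list.

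**Figure D4:**
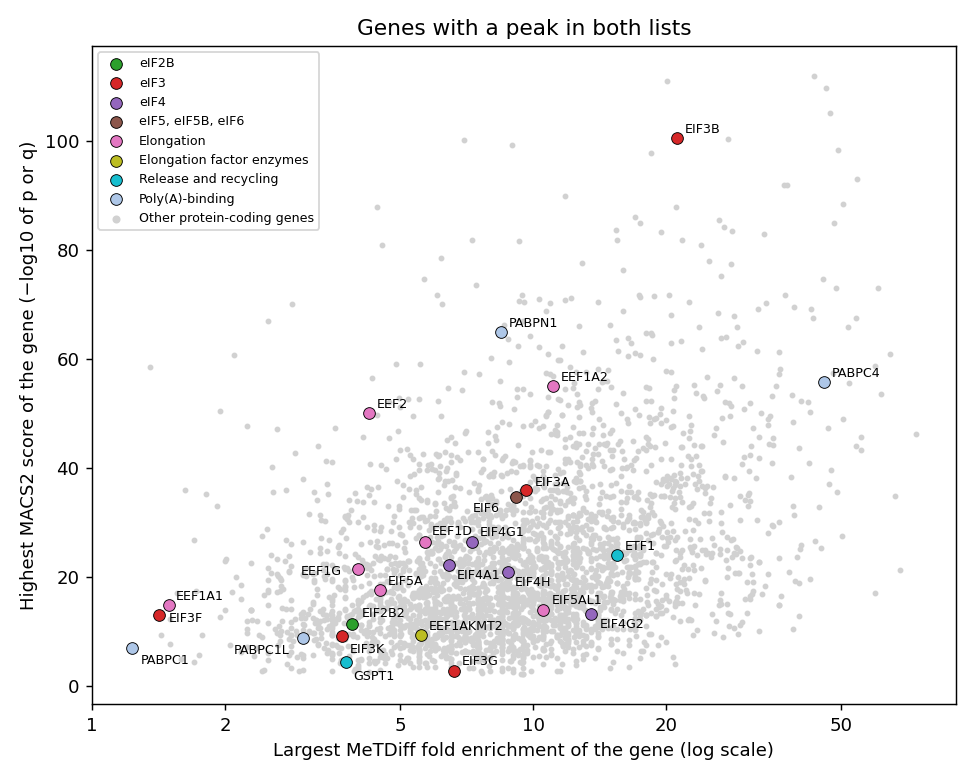
Largest MeTDiff fold of a gene on a log scale (x axis) against its highest MACS2 score (y axis) for the 25 translation factor genes in both lists (coloured) and the other protein-coding genes in both lists (grey). Of the coloured genes EIF3B lies highest, PABPC4 farthest right, and PABPC1, EIF3F and EEF1A1 farthest left.

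Of the 53 member summits 15 lay inside a block of a MeTDiff peak of the gene (28.3%, interval 18.0 to 41.6), against 2056 of 5668 summits in protein-coding genes (36.3%). When summits were widened by 50 bp on each side, the share of member summits was 52.8%. That share was not computed for all protein-coding genes, so it cannot be set against the 36.3%. In 9 of the 25 members in both lists the peak of largest fold held a summit, as in EIF3B, PABPC4, EIF3A and EIF4G2. The same share over all protein-coding genes in both lists was not computed, so this count has no comparison.

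Peaks were placed along the gene by the middle base of their blocks. Of 103 pairs of a peak and a member, 21 had it no more than 500 bp from the 5′ end (20.4%, interval 13.7 to 29.2), against 15.9% for protein-coding genes. Within 500 bp of the 3′ end lay 6 (5.83%, interval 2.7 to 12.1), against 6.59%, and these were in EIF4A1, EEF1A2, EIF2B5 and EEF1D. Those of EIF4A1 overlap each other under 3 gene IDs, so the 6 are not independent sites, though the interval counts them so. Next, only the peak of largest fold of each gene was counted. Within 500 bp of the 5′ end it lay in 16 of 48 members (33.3%, interval 21.7 to 47.5). The same held for 2014 of 7335 protein-coding genes (27.5%). The 103 pairs and the 48 members include 2 noncoding genes, EIF3J-DT and EEF1E1-BLOC1S5. Their peaks lay 395 and 86 bp from the 5′ end. Both raise the member shares at the 5′ end, and the shares beside them are of protein-coding genes only, so the sets are not alike. Within 500 bp of the 3′ end it lay in 2 of 48 members (4.17%), against 6.49% of protein-coding genes. The transcripts in use were not known, so a position is that within the gene span and not within an mRNA. Several blocks were joined in 35 of the 101 member peaks (34.7%), against 33.1% of all peaks.

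**Figure D5:**
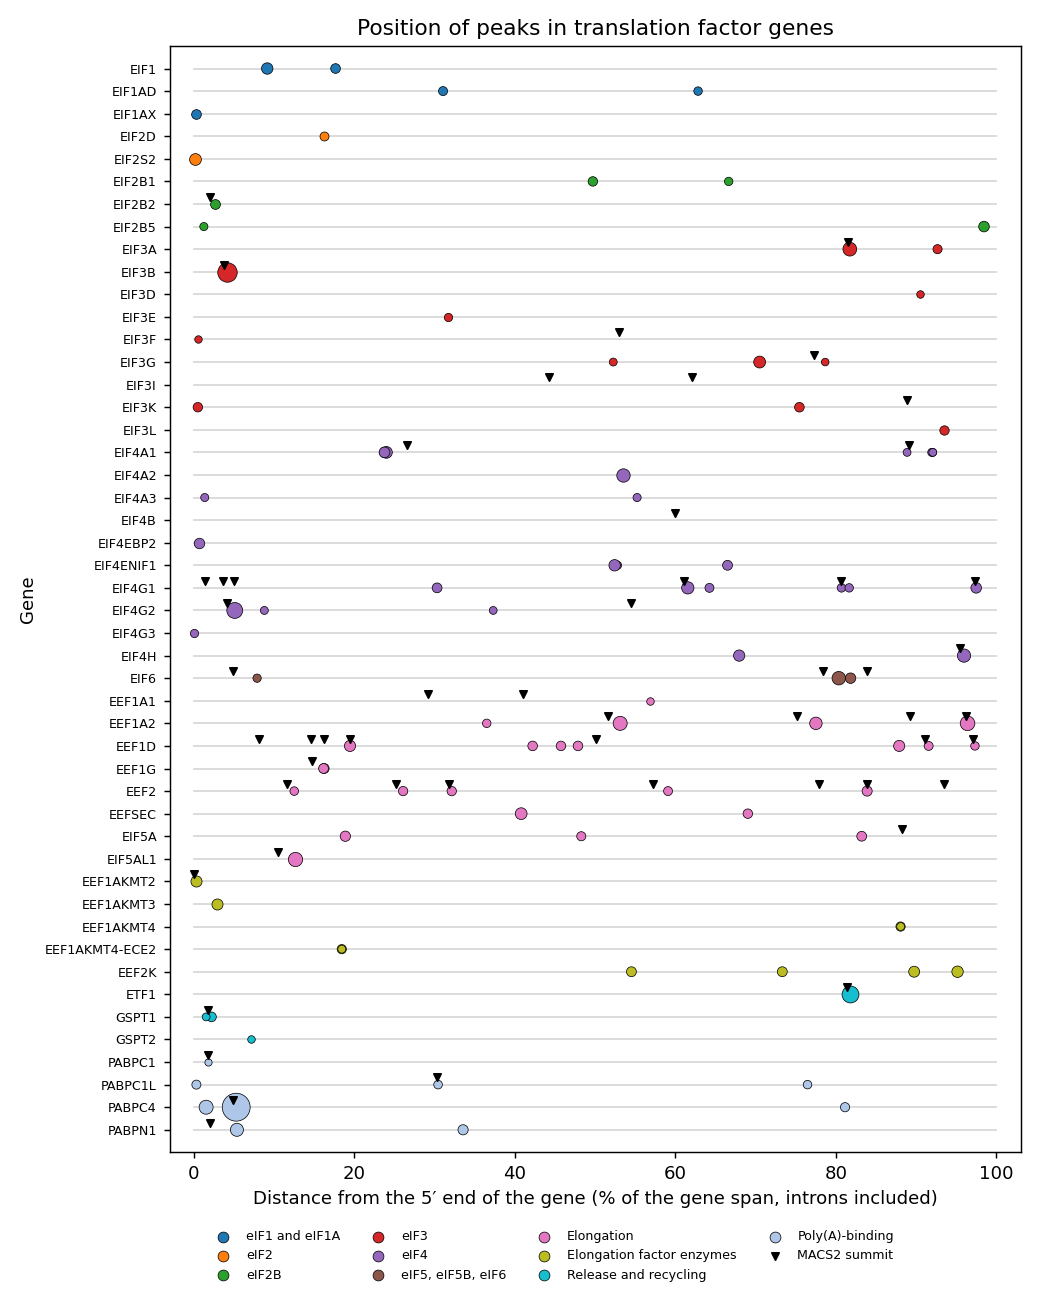
Position of MeTDiff peaks (circles, area growing with fold) and MACS2 summits (triangles) along the span of each coding gene with a peak or summit, in percent of the span from the 5′ end (x axis), with genes on the y axis. PABPC4, EIF3B, PABPN1 and EIF4G2 have their strongest peak close to the 5′ end, and EIF3A and ETF1 towards the 3′ end.

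Of 40 other genes of translational control, such as the eIF2 kinases and mTOR, 29 had a MeTDiff peak and 19 a summit, against 36.6% and 18.0% of all protein-coding genes. LARP1, the protein that binds the pyrimidine motif, had 20.9-fold enrichment and a score of 54.3. MKNK2, a kinase of eIF4E, had 8 peaks, the strongest of 16.5-fold, and RPTOR, the mTOR partner, had 13.7-fold with a score of 42.6. The eIF2 kinases EIF2AK3, EIF2AK1 and EIF2AK4 had 11.8, 9.97 and 8.35-fold, and EIF2AK2 was in neither list. MTOR itself had 5.42-fold and no summit. The lowest of the largest folds of these genes were 1.67 in MCTS1 and 2.47 in GIGYF2. The median of the largest folds was 4.83 over the 46 coding translation factors, 7.83 over these 29 genes and 6 over all protein-coding genes with a peak.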

How the data were processed

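The labels give 6 libraries in 4 groups, and 2 peak lists without library names were used. Per the submitters' processing notes, tools included STAR 2.7.1 and MACS2 2.2.5 and the build was GRCh38, while the sources used here give no roles, settings or pooling. The MACS2 list was deposited with 1 score per summit on the −log10 scale, from p or q. The MeTDiff list was deposited with each peak's p-value, the log10 of the FDR and the fold enrichment, a ratio, read as such from column order and values. The highest deposited FDR is 0.0501.

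Peaks were assigned by position with RefSeq spans of GRCh38.p14. A MeTDiff peak had to lie inside the span on the strand of the gene, which came from the promoter table or, for 10 members with peaks, from the gene ID with most peaks in the span. For the first 50 transcribed bases, any overlap on the strand was enough. Summits carry no strand. Of the members with several peaks, 12 of 27 had an FDR held by several peaks. No test was made, because no library enters either list. Members, groups and gene lists were chosen with earlier results of these data known. Values were given for the 10 members of largest fold, the 10 of highest score, and every subunit with a peak. The assignment was checked only on simulated peaks placed in genes with a strand in the promoter table, which shows that the rule was applied as written. The strand taken from gene IDs was not checked. Python 3.11.15, pandas 2.3.3 and scipy 1.17.1 were used.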

Additional observations from a re-analysis of the deposited data

How the results depend on the processing

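No paired analysis was possible because neither peak list separates libraries or replicates, and for the same reason no replicate could be left out. Over 27 alternatives, 2 of them added after seeing the data (spans widened by 100 bp and overlapping peaks merged), 19 stayed within 1.5 times of a count or within the 95% interval of a share or median. With only the upper range of scores, above the list's median, 15 members had a summit and not 27, and 14 were in both lists and not 25 when the FDR was also 0.01 or less. The median fold was 4.83 over the strongest peak of each member. The share of summits inside a peak was 49.1% over whole peak spans and 52.8% with summits widened by 50 bp. Within 250 bp, the share of peaks was 0.971% at the 3′ end and 13.6% at the 5′ end, and 33.3% of the strongest peaks lay within 500 bp of the 5′ end. Merging overlapping peaks left 94 regions of 101 peaks.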

Other observations

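Several MeTDiff peaks in or at member genes were not assigned to them. In EEF1D, 3 peaks of 5, 2.94 and 2.71-fold on the opposite strand each overlap a peak of EEF1D. In EIF4A2, a peak of 10.2-fold on the opposite strand (chr3:186784029-186784129, FDR 3.24e-05) overlaps no peak of EIF4A2 itself. EIF4ENIF1 had 1 opposite peak of 3.83-fold that overlaps 2 of its own, and EIF5A 1 of 3.76-fold that crosses the end of its span. Summits carry no strand, and 2 summits of EEF1D lie in peaks of the opposite strand.

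At the 5′ end of EEF1A2, a peak of 12.4-fold extends 102 bp beyond the annotated span, above its largest counted fold of 11.1. In EEF1AKMT3, a peak under another gene ID had 6.33-fold (chr12:57772759-57783150, FDR 4.17e-09). It begins near the 5′ end, overlaps the counted peak and extends 609 bp beyond the 3′ end of the span. Peaks that cross the start of EIF5, EIF4G2 and EEF1E1 had 8.5, 3.96 and 3.56-fold. Of the 10 noncoding genes, EIF3J-DT, transcribed away from EIF3J, had 10-fold enrichment 395 bp from its own 5′ end, while EIF3J was in neither list. The readthrough gene EEF1E1-BLOC1S5 holds the peak of EEF1E1, and the other 8 noncoding genes were in neither list.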
